A study of Saccharomyces cerevisiae with 12 samples.

Results

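Yeast mitochondrial DNA encodes a small set of proteins, and 8 of its messenger RNAs are described here, out of 6120 rows in the deposited table. They were taken by name: COX1, COX2 and COX3 (core subunits of cytochrome c oxidase, complex IV), COB (cytochrome b of complex III), OLI1 and ATP6 (membrane subunits of ATP synthase), VAR1 (a protein of the mitochondrial ribosome's small subunit) and BI4 (the maturase encoded in the fourth intron of COB). All 8 were present in the table, and all lay on the mitochondrial chromosome of the R64 reference annotation.

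The study followed Saccharomyces cerevisiae, strain pJD47, out of quiescence by RNA sequencing. Quiescent cells had been grown in glucose medium and then kept for 7 days in water with 10 mM D3-acetate. The other groups were cells taken 30 min and 240 min after they were put back in liquid medium, and cells in logarithmic growth. Each group had n = 3 libraries, described by the submitters as biological replicates. All libraries were labelled as poly(A) RNA, and every group carried the same strain label. The labels do not say whether replicates came from separate cultures, so p-values measure the spread between these libraries.

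Mitochondrial genes are transcribed by a dedicated polymerase, Rpo41, with its factor Mtf1, from short conserved promoters into long precursors that are cut and spliced. Their messengers end at a conserved dodecamer and, unlike nuclear messengers, carry no stable poly(A) tail in this yeast. A library made from poly(A) RNA therefore holds the part of this RNA that passed the selection. COX1 and COB contain introns, some of which encode maturases that help splice them, and the proteins work together with nuclear subunits in respiration, which glucose represses.

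All 8 members had less G and C than the median nuclear coding sequence. G and C made up between 10.4% (VAR1) and 33.3% (OLI1) of the members' coding bases, against a median of 39.8% over 5936 nuclear coding sequences. The ranges overlapped: the lowest nuclear coding sequence had 26.0%, and 84 lay at or below OLI1. The whole coding sequence of OLI1, the most abundant member per length, and the first 90 bases of VAR1, the least abundant, are shown with G and C in capitals. The OLI1 stretch is chrM:46723-46953 and the VAR1 stretch is chrM:48901-48990, both on the plus strand of R64, which was read from RefSeq and may differ from strain pJD47.
OLI1: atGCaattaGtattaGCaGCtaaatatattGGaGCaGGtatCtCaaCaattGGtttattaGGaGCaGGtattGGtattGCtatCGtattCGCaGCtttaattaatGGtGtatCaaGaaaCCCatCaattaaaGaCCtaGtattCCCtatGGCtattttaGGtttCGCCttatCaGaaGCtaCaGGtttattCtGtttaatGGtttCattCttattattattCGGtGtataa
VAR1: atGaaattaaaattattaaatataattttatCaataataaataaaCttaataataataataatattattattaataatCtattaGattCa
The VAR1 coding sequence was 50.4% A, and its longest run of A was 9 bases. The nuclear coding sequences had a median of 32.7% A and a median longest run of 6 bases. VAR1 is the extreme: 5 of 8 members, OLI1 (28.6% A) among them, lay below that median in A content, and 6 of 8 had a longest run of A of 6 bases or fewer. The part that runs of A played in what poly(A) selection kept was not tested.

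Stretches that mark the ends of the transcripts were searched for on both strands of the 85779-base mitochondrial genome. The dodecamer, whose letters are the capitals in the stretches printed here, was found 9 times on the plus strand and 2 times on the minus strand. The nearest match after the coding end of 5 members is shown for comparison, with the dodecamer in capitals. They lie at chrM:26761-26790 (COX1), chrM:74567-74596 (COX2), chrM:80114-80143 (COX3), chrM:43736-43765 (COB) and chrM:29344-29373 (ATP6), all on the plus strand.
COX1 end: taatataatAATAATATTCTTataaaaata
COX2 end: aataattatAATAATATTCTTaaatataat
COX3 end: tattattatAATAATATTCTTacaaatata
COB end: taatactttAATAATATTCTTaaaaataat
ATP6 end: cccccttttAATAATATTCTTttatctaat
The match began 69 bases after the coding region of COX1, 63 after COX2, 101 after COX3, 98 after COB and 87 after ATP6. For VAR1 the nearest downstream match was 580 bases away, and for OLI1 it was 3724 bases away, beyond VAR1. Of the 8 members, 4 had a whole match within 110 bases of the coding end, a window chosen after the distances were seen, and 1.04% of all plus-strand windows of that length held one.

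The promoter nonamer ATATAAGTA was found 11 times on the plus strand and 3 times on the minus strand, and none of the matches shown overlaps a dodecamer match. The nearest upstream matches of COX1, of COB with BI4, and of OLI1 are shown with the nonamer in capitals. They lie at chrM:13340-13366, chrM:34869-34895 and chrM:46140-46166 on the plus strand.
COX1 start: taagtattgATATAAGTAatagatata
COB and BI4 start: agaaatattATATAAGTAatatataaa
OLI1 start: tacacatttATATAAGTAtatatatat
These matches were 461 bases before COX1, 1654 before COB and BI4, and 566 before OLI1. Within 600 bases upstream, a window also chosen after the distances were seen, 2 of 8 members had a match, and 7.04% of all windows of that length did. The other members shared a match with an upstream gene, with annotated genes in between. A match describes these letters and not a measured start or end.

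**Figure D1:**
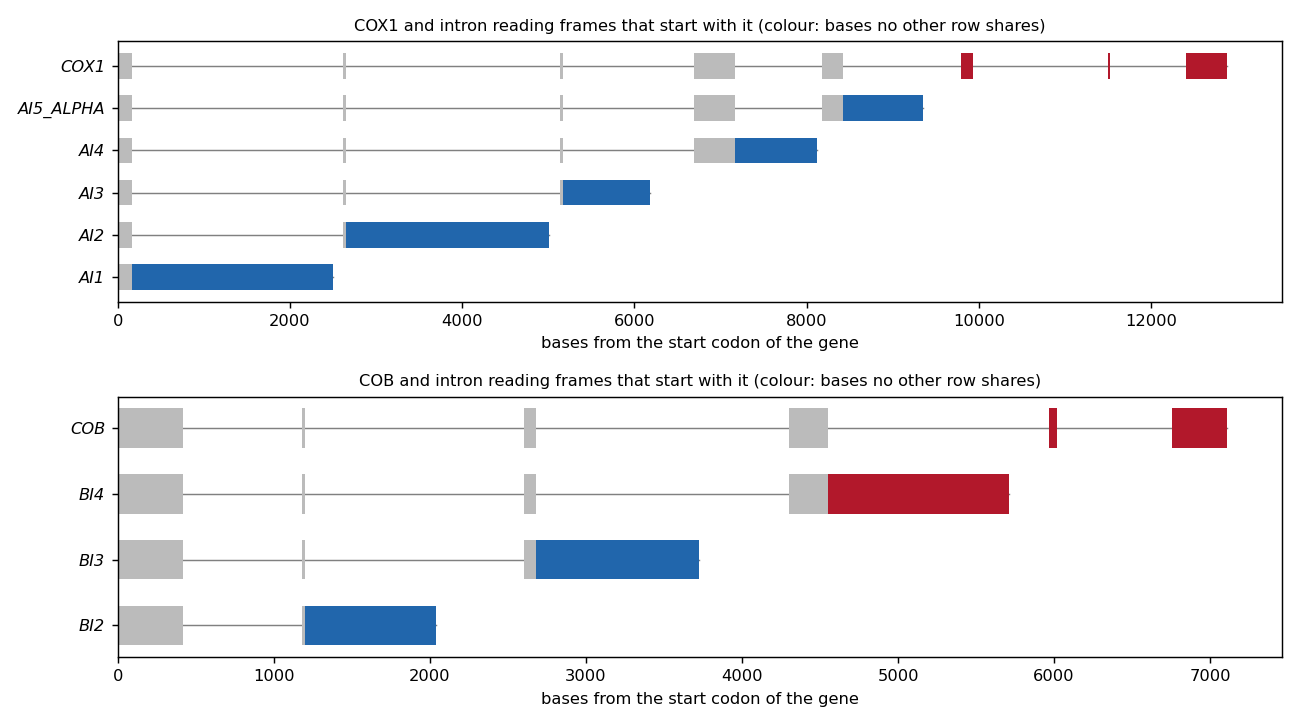
Exons of COX1, COB, BI4 and the other intron reading frames that begin with the same exons, drawn to scale against bases from the start codon, with grey for bases shared between rows and colour (red for members, blue for other rows) for bases that no other row shares. The coloured part is 633 bases in COX1, 402 in COB and 1161 in BI4.

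Overlap between rows limits what a count of COX1, COB or BI4 stands for. COX1 (8 exons) had 633 of its 1605 exon bases to itself, and COB (6 exons) had 402 of 1158. BI4 shares its upstream exons with COB and had 1161 bases of its own among 1917, while COX2 shared a few bases with the row Q0255 and kept 737 of 756. Neither the treatment of reads in shared bases nor the use of strand is stated in the labels or notes read here.

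BI4 also shares letters with the nuclear genome. Of the 1087 stretches of 75 bases in its own segment, 153 occur again, on chromosomes IX and X, where a copy of at least 227 bases lies on the minus strand with no annotated gene. The copy found starts at the first base of that segment. The bases before it, which BI4 shares with COB, were not searched. The copied part found is chrM:41091-41317, matching chrIX:7015-7241 and chrX:6998-7224. Its first 90 bases, chrM:41091-41180 on the plus strand, are shown because a read from them cannot be placed, with G and C in capitals.
BI4: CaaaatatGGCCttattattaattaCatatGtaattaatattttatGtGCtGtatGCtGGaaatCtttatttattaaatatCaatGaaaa
The other 7 members had no 75-base stretch of their own segments found elsewhere. The treatment of reads with several matches is likewise not stated, so the level of BI4 is uncertain to that extent.

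The members were rare in every library. Recovered whole reads ranged from 1195233 in quiescent replicate 1 to 15100323 in log growth replicate 3. A single read counted for 6.97 units in the former and for between 0.554 and 1.70 units in the other libraries, so quiescent replicate 1 is the least precise. Log growth replicates 2 and 3 stood apart from replicate 1: the summed level of 6 genes typical of quiescence was 51018 and 31165 there, against 3547 in replicate 1 and 102876 to 118814 in quiescent cells. The sum was not even over the 6 genes. In log growth SPG4 had 1890 ± 1748 units (SD, n = 3) against a mean of 57456 in quiescence. CTT1 had 1634 ± 842 units against 2132. All later values are normalised read counts, which are relative within a library, so fewer cells of a kind and less RNA per cell cannot be told apart.

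The 8 members together took 0.0162% to 0.0289% of the recovered reads in quiescent libraries. At 30 min their share lay between 0.00340% and 0.00707%, and at 240 min between 0.00118% and 0.00213%. Log growth libraries held 0.000337% to 0.000762%. The 4 groups did not overlap, and the quiescent libraries were the highest. In reads, the members numbered 194 to 1327 per quiescent library and 48 to 115 per log growth library.

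The summed share of RNAs that normally lack a poly(A) tail moved in the same direction over the first steps. These 100 rows of ribosomal, small nuclear and small nucleolar RNA took 0.675% to 0.729% of reads in quiescent cells and 0.228% to 0.406% at 30 min, then between 0.0925% and 0.116% at 240 min and between 0.0854% and 0.128% in log growth. Per 1000 reads of these RNAs, there were 22.8 to 39.6 member reads in quiescent cells and 14.9 to 19.5 at 30 min. The same ratio lay between 12.8 and 18.3 at 240 min and between 3.83 and 5.95 in log growth. The ratio was thus lower at 30 min than in quiescence and overlapped between 30 and 240 min, and the log growth libraries lay below all others. From quiescence to 30 min, 27 of the 81 tailless rows tested were called lower and 5 higher. Their median log2 change was -0.33, and 23.7% of all genes tested were called lower and 20.6% higher. LSR1 alone went from a mean of 13745 units to 4509. From 30 to 240 min, 22 rows were lower and 2 higher (median -0.63), where 14.0% of all genes tested were called lower. Between 240 min and log growth, 0 of the 81 tailless rows tested passed in limma's main fit, where 3.27% of all genes tested were called higher and 4.09% lower. With the replicate block 5 were higher and 5 lower, under total-count scaling 6 were lower, and without log growth replicate 1 there were 11 higher and 4 lower. Of all 5871 genes, 544 were higher and 522 lower with the block, and 690 lower under total-count scaling. Without log growth replicate 1, 1108 were higher and 968 lower. The part of RNA without a tail in the members' changes was not tested.

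**Figure D2:**
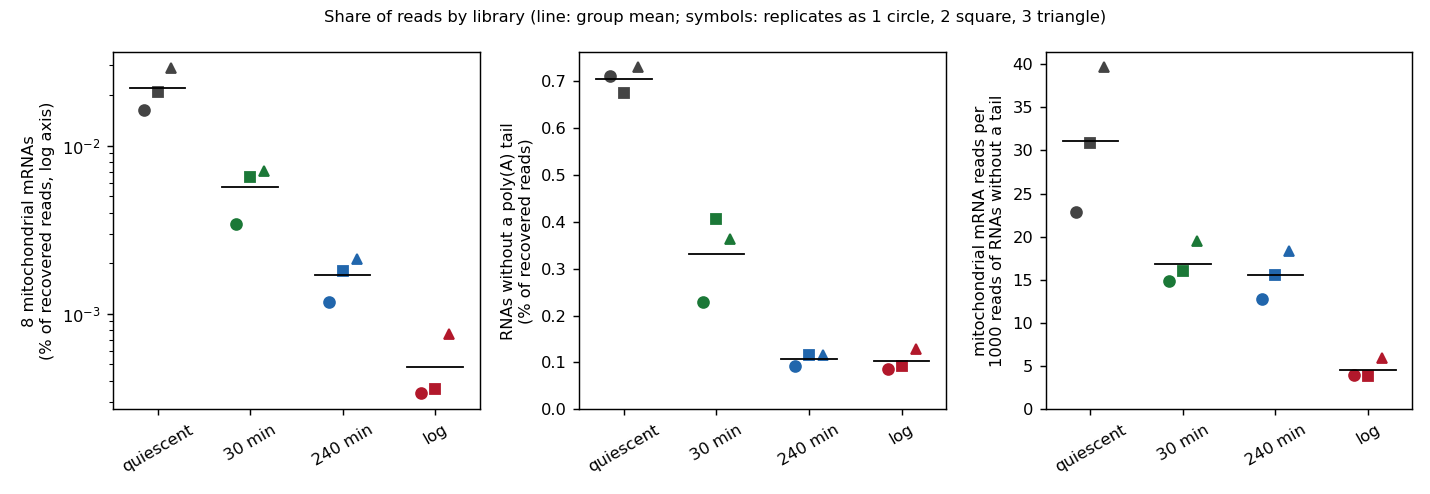
Share of recovered reads in the 8 mitochondrial messengers (% on a log axis), share in RNAs without a poly(A) tail (%), and member reads per 1000 reads of those RNAs, with 1 point per library in each of the 4 groups. Members fall from 0.0162% to 0.0289% in quiescent libraries to at most 0.000762% in log growth, while the tailless RNAs overlap between 240 min and log growth.

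Per kilobase of annotated exon, OLI1 stood far above the rest in quiescent cells, with 3702 ± 1194 normalised counts per kb (SD, n = 3). COX1 followed with 228 ± 50.05, COX2 with 126 ± 33.3, BI4 with 95.1 ± 38.6 and ATP6 with 87.5 ± 40.2 per kb. COB had 75.6 ± 13.5, COX3 61.5 ± 29.2 and VAR1 24.0 ± 9.84 per kb. OLI1 and COX1 each lay clear of the next member, whereas each neighbouring pair from COX2 down to VAR1 overlapped. The median nuclear gene had 504 per coding kb, so OLI1 was the one member above it. Counted only over bases that no other row shares, a measure added after the data were seen, COX1 had 578 ± 127 per kb, COB 218 ± 38.9 and BI4 157 ± 63.8, which puts COX1 above that median and COB next in order.

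In log growth OLI1 was again first, at 92.0 ± 35.6 per kb of exon (SD, n = 3). COX1 followed with 16.3 ± 10.1, below every OLI1 library, but per kb of its own bases it had 41.4 ± 25.5 and its highest library, 69.7, passed the lowest of OLI1, 67.2. The other 6 members were at 3.50 per kb of exon or less.

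**Figure D3:**
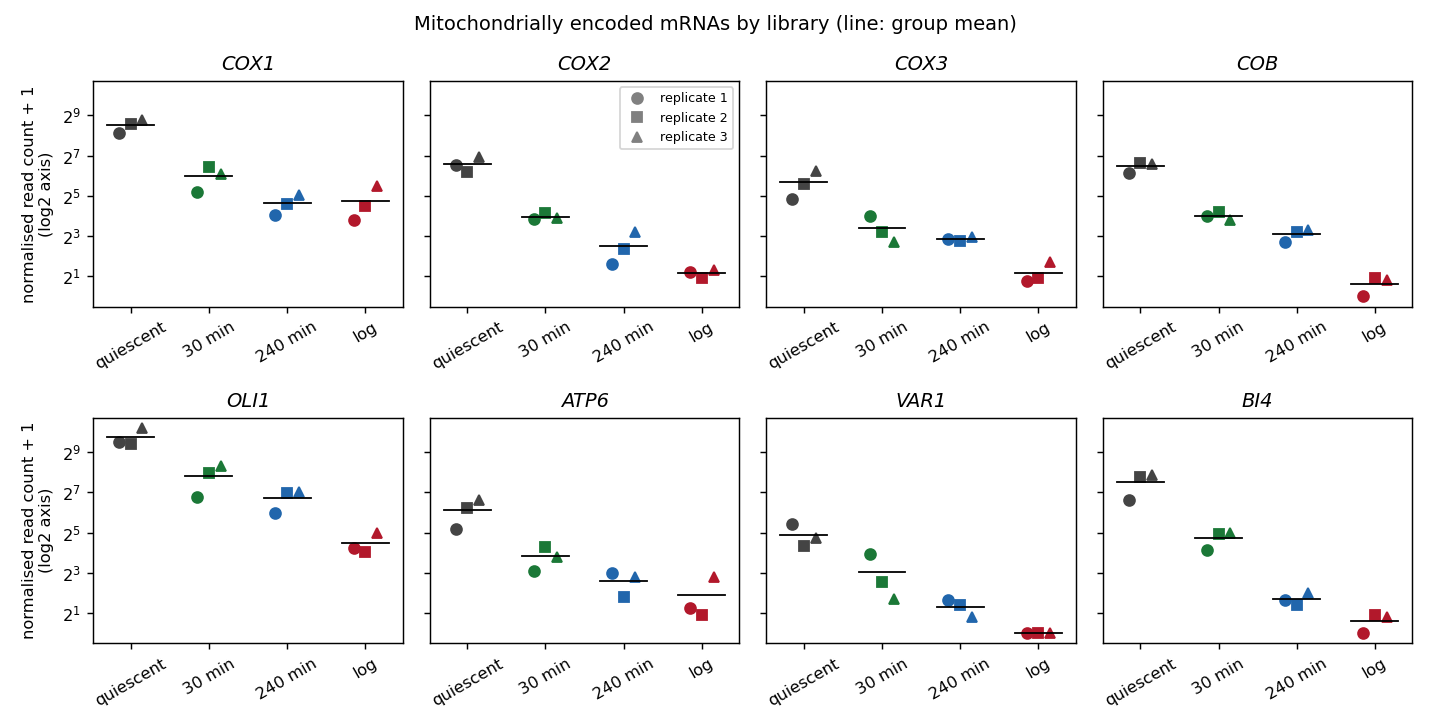
Normalised read count of each of the 8 members in each library (log axis), grouped by quiescence, 30 min, 240 min and log growth. Every member has its 3 quiescent libraries above all its others, and how many of all genes do the same was not counted. In log growth replicates 1 to 3, COX1 has 19, 25 and 59 reads and OLI1 has 26, 18 and 41. The other members have fewer there.

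Of the 8 members, 7 reached the mean of 10 units over 12 libraries needed for the test, and VAR1, with a mean of 9.35, did not. Only OLI1 and COX1 would have passed on the 9 libraries outside quiescence. COX2, COX3, COB, ATP6 and BI4 passed through the group in which they were high, so counts over the members describe them and support nothing further. Changes are log2 differences of (value + 1) from limma, adjusted over all 5871 genes tested, and this scale understates changes of low genes.

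In the first 30 min after return to medium, the 7 tested members fell, BI4 by 2.72 on the log2 scale and OLI1 least. For comparison, 23.7% of all genes tested were called lower in this comparison. In all 8 members, VAR1 included, each 30 min library lay below each quiescent one. The share of all genes that separated in this way was not counted. The median log2 change of the 7 was -2.45, against -0.07 over all genes tested.

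OLI1, which forms the rotor ring of ATP synthase, had 711, 681 and 1173 units in quiescent replicates 1 to 3. At 30 min it had 109, 251 and 321 units. Both groups were wide, but they did not overlap (adjusted p = 0.00273, limma, with an SE of 0.43 on the log2 scale), and OLI1 pooled over libraries was 3.68-fold lower, with a 95% counting interval of 3.39 to 3.99. ATP6, the proton channel subunit, had 34.9, 72.9 and 97.0 units in quiescence and 7.58, 18.8 and 12.7 at 30 min. Its change was -2.27 ± 0.58 (SE, adjusted p = 0.00754, limma), and its groups did not overlap either.

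For the catalytic subunit of complex IV, COX1, the quiescent libraries held 279, 381 and 438 units. After 30 min they held 36.2, 84.3 and 66.0 units. COX1 was lower in all 3, with a log2 change of -2.60 ± 0.45 (SE, adjusted p = 6.97e-04, limma). COX2, which receives electrons from cytochrome c, went from 90.7, 72.9 and 122.6 units to 13.5, 16.7 and 13.9, a log2 change of -2.59 (adjusted p = 4.23e-04, limma). COX3, a core subunit without a metal centre, went from 27.9, 46.7 and 74.9 units to 15.2, 8.36 and 5.54, a log2 change of -2.24 (adjusted p = 0.00220, limma).

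COB had 69.7, 99.1 and 93.6 units in quiescent cells and 15.2, 17.4 and 12.7 units at 30 min. Its log2 change was -2.45 ± 0.36 (SE, adjusted p = 2.50e-04, limma), and both groups were tight. BI4, the maturase that helps remove the COB intron that encodes it, had 97.6, 214 and 235 units in quiescence and 16.8, 29.9 and 31.0 at 30 min. Its log2 change was -2.72 ± 0.44 (SE, adjusted p = 4.44e-04, limma). VAR1 had 41.8, 19.0 and 25.5 units in quiescence and 14.3, 4.87 and 2.22 at 30 min, and with no filter on low values its log2 change was -2.10 ± 0.52 (SE, adjusted p = 0.00647, limma).

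Between 30 and 240 min BI4, COX2 and COX1 were called lower, and the other 4 tested members did not pass. The log2 differences of all 7 were negative, and differences between members were not tested. That is 3 of 7, where 14.0% of all genes tested were called lower. With the replicate number as a block 5 of 7 were called, COB (adjusted p = 0.0494, limma) and OLI1 (adjusted p = 0.0111, limma) being added. The block called 1159 of all 5871 genes lower, against 823 without it. Without replicate 2 at 30 min, or without replicate 1 at 240 min, 1 of 7 was called. There 1011 and 1290 genes in all were called, higher or lower, instead of 1602.

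BI4 had the largest change of the 7 in this step, to 2.09, 1.63 and 2.98 units, which are 3, 2 and 4 reads. Its log2 change was -3.03 ± 0.44 (SE, adjusted p = 3.90e-04, limma). Pooled over the 3 libraries, BI4 was 11.96-fold lower at 240 min than at 30 min, with a 95% interval of 6.09 to 26.8 that covers counting error only. COX2 fell to 2.09, 4.07 and 8.21 units, a log2 change of -1.57 ± 0.41 (SE, adjusted p = 0.0144, limma). COX1 fell to 15.3, 23.6 and 32.1 units, a log2 change of -1.33 ± 0.45 (SE, adjusted p = 0.0431, limma), and its call was lost when any of 7 single libraries was left out.

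The remaining members had smaller differences. COB had 5.57, 8.13 and 8.95 units at 240 min, below all 30 min libraries, with a log2 difference of -0.93 (adjusted p = 0.0744, limma). OLI1 had 62.0, 122 and 130 units, overlapping the 30 min libraries, with -1.05 (adjusted p = 0.0920, limma). ATP6, at 6.96, 2.44 and 5.97 units, had a log2 difference of -1.20 (adjusted p = 0.147, limma). COX3, at 6.27, 5.69 and 6.71 units, overlapped its 30 min values and differed by -0.47 (adjusted p = 0.501, limma). VAR1 had 2.09, 1.63 and 0.746 units, which are 6 reads in all, just below the lowest 30 min value of 2.22.

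From 240 min to log growth, COB, OLI1 and COX3 were called lower, COX1 was level, and the other 3 tested members did not pass. The count of 3 of 7 stands beside 4.09% of all genes tested called lower. A fit of these 2 groups alone called 0 of 7 members, and 13 of all 5871 genes lower, while the members' median log2 change was the same, -1.24. Without log growth replicates 2 and 3, 1 of 7 passed and 96 of all genes were called lower, and the members' median was -1.67. Leaving out replicate 2 or replicate 3 at 240 min likewise left 1 of 7, with 66 and 48 genes in all called instead of 432.

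COB was listed with 0, 0.863 and 0.748 units in log growth, which are 2 reads in all against 30 at 240 min. The log2 change was -2.51 ± 0.36 (SE, adjusted p = 0.00391, limma), and the pooled ratio was 0.0672 with a 95% counting interval of 0.00778 to 0.265. OLI1 had 17.6, 15.5 and 30.7 units, all below its 240 min libraries, a log2 change of -2.23 ± 0.43 (SE, adjusted p = 0.0127, limma). COX3 had 0.676, 0.863 and 2.24 units, which are 5 reads in all, a log2 change of -1.74 (adjusted p = 0.0429, limma). Its call was lost with a pseudocount of 10 (adjusted p = 0.262, limma) and with edgeR (adjusted p = 0.0564, edgeR). Leaving out replicate 1, 2 or 3 at 240 min, or log growth replicate 2 or 3, lost it as well.

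COX1 had 12.9, 21.6 and 44.1 units in log growth, spread to both sides of its 240 min values. The log2 difference was 0.03 ± 0.45 (SE, adjusted p = 0.976, limma), and it turned to -0.77 without log growth replicates 2 and 3, to -0.42 without replicate 3 alone and to -0.23 under total-count scaling. COX2 had 1.35, 0.863 and 1.496 units, with a log2 difference of -1.24 (adjusted p = 0.0908, limma), and ATP6 had 1.35, 0.863 and 5.98 units, with -0.88 (adjusted p = 0.367, limma). BI4 had 0, 0.863 and 0.748 units, with a log2 difference of -1.10 (adjusted p = 0.139, limma). VAR1 had no read in any log growth library.

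**Figure D4:**
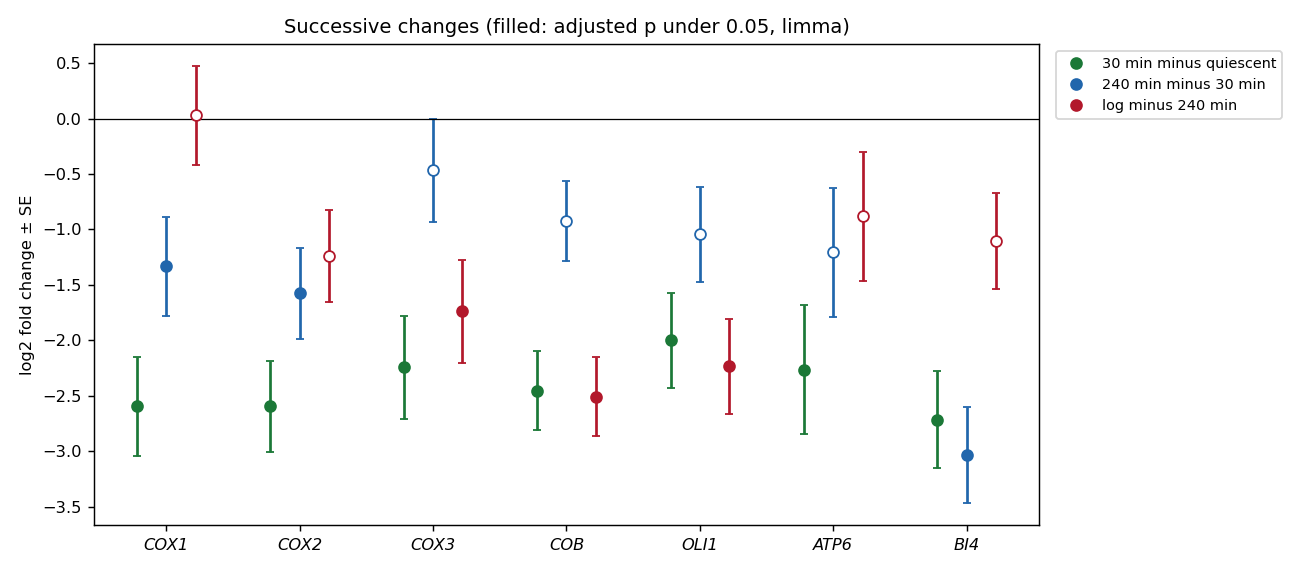
Log2 change (limma, log2 of value + 1) with its standard error for the 7 tested members in the 3 successive steps, with filled points where the adjusted p is under 0.05. All 7 points of the first step are filled, BI4 is lowest in the second step at -3.03, and COX1 is at 0.03 in the third.

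Across the whole course the quiescent libraries stood above all others for every member, and how many of all genes did the same was not counted. In log growth against quiescence the 7 tested members fell, from -3.90 ± 0.45 for COX1 to -6.85 ± 0.44 for BI4 (log2, SE), where 27.8% of all genes tested were called lower. At 240 min against quiescence 7 of 7 fell, from -2.71 for COX3 to -5.75 for BI4, beside 29.5% of all genes tested. In log growth against 30 min 7 of 7 fell, from -1.30 for COX1 to -4.14 for BI4, beside 22.1%, and 5 to 7 were called when 1 library was left out, COX1 and ATP6 being the ones lost. These comparisons share libraries with the steps above.

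Read counts bound the size of the fall for the rarest members. Pooled over libraries, OLI1 was 41.5-fold lower in log growth than in quiescence, with a 95% counting interval of 33.3 to 52.3. COX1 was 15.2-fold lower, with an interval of 12.3 to 18.9. These intervals leave out the spread between libraries, and the difference between COX1 and OLI1 was not tested. BI4, with 2 reads in log growth, had a ratio of 0.00238 with an interval of 0.000287 to 0.00869. VAR1, with 0 reads, had an upper 95% counting limit of 0.0409 on its ratio. With a floor of 3 reads set over the group, it would be 31.8-fold lower, which leaves out counting error.

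The make-up of the mitochondrial reads changed with COX1 and OLI1. COX1 held 20.6%, 24.0% and 19.4% of member reads in quiescent replicates 1 to 3, and 14.97%, 13.9% and 16.4% at 240 min. In log growth it held 38.0%, 52.1% and 51.3%, above every other library. OLI1 held 60.5%, 72.1% and 66.4% at 240 min and 52.0%, 37.5% and 35.7% in log growth. BI4 went from 7.22% to 13.5% of member reads in quiescence to 0.962% to 2.04% at 240 min.

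As a ratio of reads, chosen after the values were seen and given without a test, COX1 over OLI1 was 0.392, 0.559 and 0.373 in quiescent replicates 1 to 3. It was 0.333, 0.335 and 0.206 at 30 min and 0.247, 0.193 and 0.247 at 240 min. In log growth it was 0.731, 1.39 and 1.44, so the log growth libraries lay above all others, replicate 1 least so. Within each library such a ratio does not depend on how libraries were scaled.

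BI4 over COB, rows that share a precursor, was 1.40, 2.16 and 2.51 in quiescent replicates 1 to 3 and 1.11, 1.72 and 2.43 at 30 min. At 240 min it was 0.375, 0.200 and 0.333, with no overlap with the earlier groups. At 240 min it rests on 2 to 4 reads of BI4 and 8 to 12 of COB per library. In log growth replicates 2 and 3 had 1 read of each and replicate 1 had none, so no ratio can be read there.

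**Figure D5:**
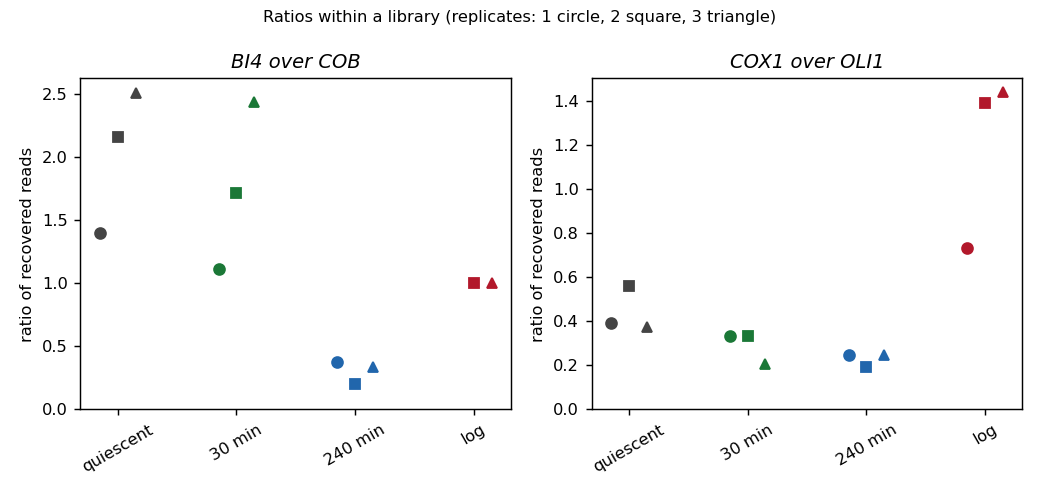
Ratio of reads within each library (linear axis) for COX1 over OLI1 and for BI4 over COB in the 4 groups, with 1 point per library where both rows had a read. COX1 over OLI1 is highest in log growth (0.731 to 1.44), and BI4 over COB is lowest at 240 min (0.200 to 0.375).

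The other 11 rows of the mitochondrial genome, mostly intron-encoded maturases and endonucleases, are described beside the members. Of the 10 tested, 10 fell from quiescence to 30 min (23.7% of all genes tested were called lower), 7 fell from 30 to 240 min (14.0%) and 0 were called from 240 min to log growth (4.09%). In the last 2 steps, 8 and 2 were called lower with the replicate block, and 8 and 1 under total-count scaling. Of all 5871 genes, 1159 and 522 were called lower with the block, and 1935 and 690 under total-count scaling. ATP8, a small ATP synthase subunit, had too few reads to be tested. AI1 and AI2, the maturases of the first introns of COX1, had 720 ± 281 and 518 ± 186 units in quiescence and 25.0 ± 5.64 and 29.6 ± 12.3 in log growth (SD, n = 3). BI2, the maturase row in the second intron of COB, fell by 2.52 on the log2 scale from 30 to 240 min (adjusted p = 0.00357, limma). BI3, in the third, changed by -1.71 in that step (adjusted p = 0.0448, limma), and COB itself by -0.93 ± 0.36 (SE). COB was called in that step with the replicate block, and the differences between COB and its intron rows were not tested.

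The nuclear genes that make up the same complexes had calls in both directions, depending on the comparison. From quiescence to 30 min, where 20.6% of all genes tested were called higher and 23.7% lower, 0 of 9 nuclear complex III genes rose and 2 fell, 1 of 10 complex IV genes rose and 2 fell, and 2 of 14 ATP synthase genes rose and 2 fell. At 240 min against quiescence, 0 of 9 complex III genes rose and 5 fell, with a median log2 change of -1.03, where 29.1% of all genes tested were called higher and 29.5% lower. In log growth against quiescence, with 28.8% of all genes tested called higher and 27.8% lower, 3 of 9 complex III genes rose and 1 fell, 7 of 10 complex IV genes rose and 0 fell, and 7 of 14 ATP synthase genes rose and 1 fell. The median log2 changes of these lists were 0.63, 0.82 and 0.88, against -5.28 for the members and 0.05 over all genes tested. Under total-count scaling 978 of all 5871 genes were called higher and 2381 lower. There the lists' rises and falls were 3 and 3, 4 and 0, and 4 and 2, and the medians were 0.16, 0.35 and 0.41. Without log growth replicates 2 and 3 they were 2 and 2 for complex III (median 0.07), 4 and 1 for complex IV and 7 and 2 for ATP synthase. COX8, a small subunit of complex IV, rose from 318 ± 20.5 to 1028 ± 196 units (SD, n = 3), a log2 change of 1.67 (adjusted p = 2.24e-05, limma). CYT1, cytochrome c1 of complex III, rose from 677 ± 117 to 1748 ± 314 units, and QCR8, another subunit of that complex, fell from 3250 ± 283 to 1592 ± 90.6 units.

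From 240 min to log growth, 7 of 9 complex III and 9 of 10 complex IV nuclear genes rose, and 1 of 14 ATP synthase genes did, beside 3.27% of all genes tested. With the replicate block, 7 of the 14 ATP synthase genes rose, and 544 of all 5871 genes were called higher. Without log growth replicates 2 and 3, the counts were 2, 0 and 0, the medians were 0.97, 0.62 and 0.51 (1.37, 1.15 and 0.67 with all libraries), and 145 genes in all were called instead of 432. In a fit of these 2 groups alone the counts were 0, 0 and 0 with the medians as they were, and 19 genes in all were called. The part of the higher summed level of the 6 quiescence genes in log growth replicates 2 and 3 was not tested.

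Nuclear genes that serve the mitochondrial messengers had calls in both directions, as did all genes (28.8% higher and 27.8% lower in log growth against quiescence). In that comparison, 5 of 9 genes of mitochondrial transcription and DNA maintenance rose and 2 fell, and 4 of 15 genes of mitochondrial RNA processing rose and 4 fell, the latter close to the share over all genes. Under total-count scaling, which moved the median of all genes from 0.05 to -0.42, the counts were 2 and 2, and 1 and 5. There 978 of all 5871 genes were called higher and 2381 lower. MSS116, the helicase needed for mitochondrial splicing, rose from 1119 ± 171 to 2621 ± 521 units (SD, n = 3). SUV3, the helicase of the mitochondrial degradosome, rose from 247 ± 14.8 to 447 ± 69.7 units. MNE1 and SLS1, of the same list, fell from 722 ± 9.57 to 426 ± 40.8 and from 98.8 ± 29.4 to 57.4 ± 11.5 units. Of 16 translational activators of single mitochondrial messengers, 3 rose and 7 fell (1 and 8 under total-count scaling). PET111, the activator of COX2, rose by a log2 change of 1.29 (adjusted p = 0.00381, limma). PET309, an activator of COX1, rose by 0.84 (adjusted p = 0.00169, limma). SOV1, which serves VAR1, fell by 1.88 on the log2 scale (adjusted p = 1.97e-05, limma). MSS51, another activator of the list, had a log2 change of -1.02 (adjusted p = 0.00341, limma).

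Partners in translation and assembly stand beside the same shares over all genes, 28.8% higher and 27.8% lower. In log growth against quiescence, 4 of 10 general translation factors rose and 2 fell, 10 of 32 nuclear proteins of the small mitochondrial ribosomal subunit rose and 5 fell, and 5 of 18 insertion and assembly factors rose and 2 fell. Under total-count scaling these were 2 and 2, 4 and 9, and 1 and 5. There 978 of all 5871 genes were called higher and 2381 lower, so the balance over all genes turned as well. TUF1, the mitochondrial elongation factor, rose from 1186 ± 112 to 2900 ± 302 units (SD, n = 3). MEF2, another general translation factor of the list, fell from 1243 ± 170 to 384 ± 51.4 units. OXA1, the insertase that places mitochondrially made subunits in the inner membrane, fell from 1090 ± 165 to 308 ± 35.5 units. COX17, also among the insertion and assembly factors, rose from 289 ± 51.7 to 1249 ± 596 units.

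Over the 12 libraries, the nuclear genes whose pattern was most like the mean of the 7 tested members were SDD1, CTA1, POT1, SPL2 and snR70. Their Pearson correlations on log2 values were 0.988, 0.983, 0.983, 0.979 and 0.978, among 5624 nuclear genes with a mean of at least 50. snR70 is one of the RNAs without a poly(A) tail, and the 49 such RNAs ranked had a median correlation of 0.717, against -0.083 over all the nuclear genes ranked. CTA1, the peroxisomal catalase, went from a mean of 25598 units in quiescence to 336 in log growth, and POT1, the thiolase of fatty acid oxidation, from 12993 to 117. The least alike were SAH1, TUB2 and MRPS9, with -0.985, -0.975 and -0.974. The 12 libraries fall into 4 groups, so they are not 12 independent points.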

How the data were processed

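RNA from 12 libraries (4 groups of 3) was analysed from the deposited table of normalised read counts, treated as a signal. The submitters' processing notes name the sacCer3 build and, among tools, HTSeq 0.6.1, STAR 2.5.2a, bedtools, DESeq2 and DESeq. Counting mode and strand are not stated there. The deposited values were whole multiples of 1 read in every library (100% of values, tolerance 1e-06), so reads were recovered for ratios and for edgeR 4.0.16 and DESeq2 1.42.0. Because the values are normalised, the main test was limma 3.58.1 (R 4.3.3) with an intensity trend on log2(value + 1), for 5871 rows with a mean of at least 10, with Benjamini-Hochberg adjustment and a threshold of 0.05. It was tested on simulated data.

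Members and gene lists were chosen with earlier results of these data known. Named nuclear genes came from the 2 called genes of each list with the largest rise and fall and with the higher group averaging 50 units or more. The other mitochondrial rows named beyond the most abundant were chosen after their values were seen. All 18 same-numbered pairs correlated above 0.1 in their deviations (0.134 to 0.582), the rule used for giving blocked values beside results. Differently numbered pairs among replicates 2 and 3 correlated as highly (0.21 to 0.553), so the values set apart replicate 1 and do not show that the numbers pair libraries. Sequences came from RefSeq R64, the assembly behind sacCer3. Intervals cover counting error only, since reads carry no molecular identifiers. Alternatives were other scalings, filters, pseudocounts and tools, a replicate block, and leaving out libraries.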

Additional observations from a re-analysis of the deposited data

How the results depend on the processing

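The fall of members from quiescence to each later group held under every alternative tried, 7 of 7 being called (8 of 8 with no filter) except with a filter at a mean of 50, which left 3 tested and 3 called. In log growth against 30 min that filter also gave 3, a fit of these groups only gave 6, and 5 to 7 were called when 1 library was left out. From 30 to 240 min, 3 were called at first, 6 under total-count scaling, 5 with DESeq2, 5 with the replicate block, 5 without replicate 1 of every group, and 1 to 4 when 1 library was left out. Of all genes in that step, 1602 were called at first, higher or lower, and 2263 under total-count scaling. DESeq2 called 1975 genes, the block 2314 and the fit without replicate 1 of every group 3559. From 240 min to log growth, 3 were called at first, 1 with the filter at 50, 0 in a fit of these groups only, 5 without replicate 1 of every group, 1 without log growth replicates 2 and 3 (chosen after seeing the data), and 1 to 4 when 1 library was left out. In that step, 432 genes were called at first, 19 with these groups only and 3673 without replicate 1 of every group. The block changed no other count of members. COX1 from 240 min to log growth turned from 0.03 to -0.23 (total-count scaling), -0.24 (without replicate 1 at 240 min), -0.42 (without log growth replicate 3) and -0.77 (without log growth replicates 2 and 3), ranging from -0.42 to 0.43 when 1 library was left out, and the cause was not tested. Total-count scaling moved the median of all genes from -0.01 to -0.46 between 30 and 240 min and from -0.01 to -0.28 between 240 min and log growth. Depth limits COB, BI4 and VAR1 in log growth, with 2, 2 and 0 reads. Of the members' single changes recomputed with a test, 885 kept their side of the threshold, 34 lost it, 19 gained it and 4 changed sign. Of those taken within replicate 1 alone, which have no test, 26 moved by less than the spread between libraries and 16 by more, and COX1 from 240 min to log growth was at -0.24 there too.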
